A study of Mus musculus with 25 samples.

Results

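Surfactant is the film of lipid and protein that lines the alveoli of the lung, and the genes described here encode its proteins and further products named with the alveolar type II cell, which makes it. Of 7 genes named for the description (Sftpa1, Sftpb, Sftpc, Sftpd, Slc34a2, Fabp5 and Dlk1), 6 had a probe set whose only annotated symbol was that gene, with 1 probe set each, among 8251 genes with such a probe set. The probe sets were 160891_at for Sftpb, 94900_at for Sftpc, 102648_at for Sftpd, 98994_at for Slc34a2, 160544_at for Fabp5 and 101975_at for Dlk1. Sftpa1, which encodes surfactant protein A, had none and is not analysed here. Sftpd stayed below the filter on low signals, so 5 members were tested.

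Total RNA of whole C57BL/6 mouse lung was measured on 24 Affymetrix MG-U74Av2 arrays in 11 groups. Calorie restricted mice (CR, food reduced by 2/3) were sampled at 2, 4, 12, 24, 48, 72 and 96 h, with 2 arrays per time. Control mice, called fed here, gave 4 arrays at 0 h and 2 arrays per time at 2, 4 and 12 h. Their labels state continuous feeding and yet repeat the wording of the 2/3 reduction, so how they were fed is not settled. Arrays bear a letter, a or b, and the fed 0 h arrays also a number, 1 or 2. No label says whether a and b came from separate animals, so the p-values may measure technical spread only. No genotype other than the strain, and no age, is used here.

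Alveolar type II cells secrete surfactant from lamellar bodies and recycle it. Surfactant proteins B and C are small hydrophobic proteins that help the lipid film form and spread, while proteins A and D are collectins, soluble lectins of host defence. The lipids are mainly phosphatidylcholine, and transcription factors of the NKX2-1, FOXA and C/EBP families are known to act on surfactant genes. Fabp5 and Dlk1 are not restricted to this cell type: FABP5 is a carrier of fatty acids also found in macrophages and skin, and DLK1 is a membrane protein related to Notch ligands, known as preadipocyte factor.

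The promoters of Sftpb and Slc34a2 are shown because these were the members that were higher in late CR lungs than in fed 0 h lungs. Each is the 250 bases upstream of the gene's start in RefSeq (GRCm38.p6, plus strand), at chr6:72304360-72304609 for Sftpb and at chr5:53049103-53049352 for Slc34a2. Capitals mark matches to 5 motifs, which were searched on both strands and chosen with the sequences in view.
Sftpb: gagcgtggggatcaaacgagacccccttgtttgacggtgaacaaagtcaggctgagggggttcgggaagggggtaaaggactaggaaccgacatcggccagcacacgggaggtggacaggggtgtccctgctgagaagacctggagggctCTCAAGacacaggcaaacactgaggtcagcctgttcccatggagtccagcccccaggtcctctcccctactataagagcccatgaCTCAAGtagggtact
Slc34a2: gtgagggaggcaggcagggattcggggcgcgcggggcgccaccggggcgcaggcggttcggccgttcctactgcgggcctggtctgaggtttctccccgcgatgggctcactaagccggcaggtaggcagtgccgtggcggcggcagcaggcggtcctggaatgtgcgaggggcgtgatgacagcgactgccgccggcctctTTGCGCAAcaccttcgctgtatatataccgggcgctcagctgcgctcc
The Sftpb window held the NKX2-1 letters CTCAAG 2 times, at -100 to -95 and at -15 to -10 from the gene's start, and no match overlapped another motif. At least 1 match to these letters, on either strand, occurs in 13.3% of 32851 mouse promoter windows of the same length. The Slc34a2 window held the palindromic C/EBP letters TTGCGCAA at -48 to -41, a match that 0.164% of the windows have. Neither window held the TATA letters TATAAA (12.4% of windows), the forkhead letters TGTTTAC (3.17%) or the glucocorticoid receptor letters AGAACA (16.1%). Only exact letters were searched, so variants are not marked, such as tatatata in the Slc34a2 window and tataag in the Sftpb window. A match is a string of letters and no measured binding site.

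All levels are linear probe set signals after each array was scaled to a common median. Signals of different probe sets are not comparable as amounts of RNA, so each gene is set against itself. Across the arrays, 5 of the 9 defining type II cell markers had a probe set (Sftpb, Sftpc, Sftpd, Slc34a2 and Napsa). Of these, 4 were above the array median on all 24 arrays, and Sftpd was below it on all 24. The 6 of 10 type I cell markers on the array were above the median on all 24 arrays, and their summed signal was 70236 to 98558 on CR 24 to 96 h arrays and 77109 to 88278 on fed 0 h arrays.

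The arrays differed in the top of their signal range, which bears on the brightest members. The highest signal of any probe set outside the members was 57398 to 83199 on 12 arrays, called high range here (CR 2, 12, 24 and 48 h, fed 0 h number 1 and fed 12 h). It was 31497 to 55232 on the other 12, called low range (CR 4, 72 and 96 h, fed 0 h number 2, and fed 2 and 4 h). The cut between the ranges lay at 56315. Fed 0 h number 2 was close below it, at 52254 and 55232. The other low range arrays lay at 43722 or less. Fed 0 h number 2 is the control of the late comparisons with fed 0 h within the low range. Every group except fed 0 h fell in a single range, so that time and range cannot be told apart within the CR series.

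**Figure D1:**
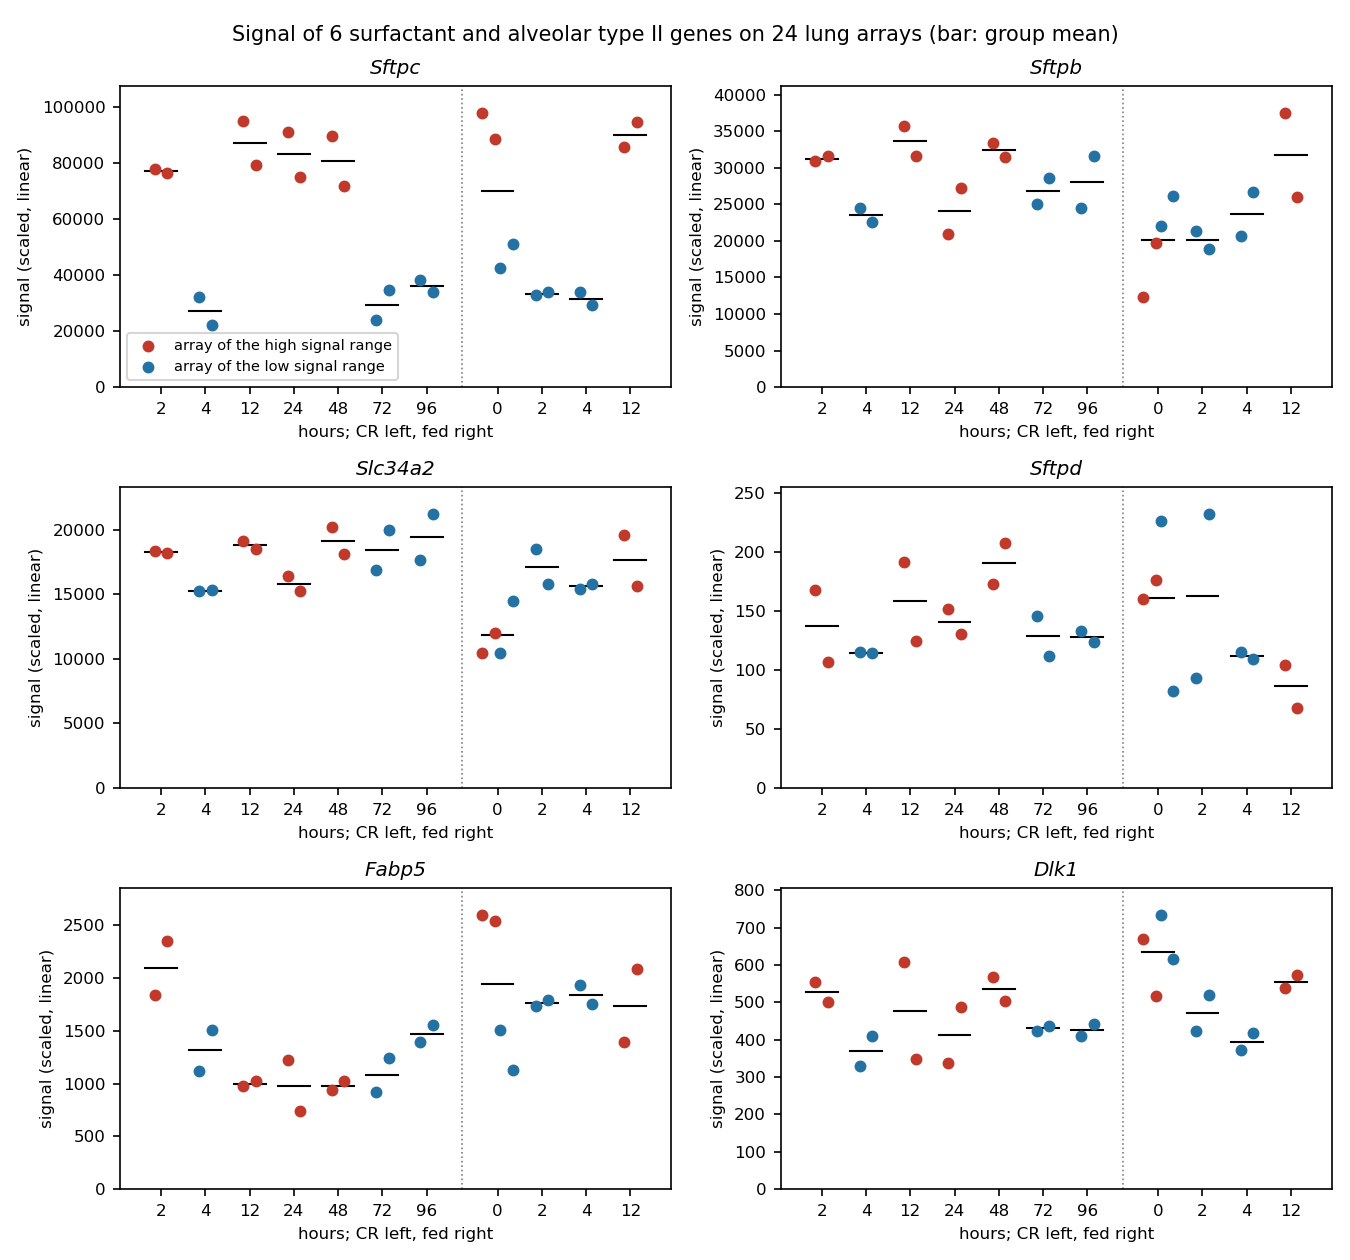
Scaled linear signal (vertical axis) of each member on the 24 arrays, by hours of CR (left of the dotted line) and of feeding (right); points are arrays, red for the high and blue for the low signal range, and bars are group means. Sftpc follows the point colour, Slc34a2 is lowest on the 4 fed 0 h arrays, and Fabp5 is lowest around CR 12 to 72 h.

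Sftpc, the gene of surfactant protein C, followed the signal range of the arrays. On CR arrays its signal was 77793 and 76366 at 2 h, 32331 and 22257 at 4 h, and 94953 and 79117 at 12 h. At the later CR times it was 90893 and 75148 at 24 h, 89647 and 71740.4 at 48 h, 23976 and 34498 at 72 h, and 38344.5 and 33839 at 96 h. On fed arrays it was 97698, 88378.5, 42569 and 51195 at 0 h (numbers 1a, 1b, 2a and 2b), 32858 and 33782 at 2 h, 34038 and 29127 at 4 h, and 85544 and 94729 at 12 h. The 12 high range arrays held 71740.4 to 97698 and the 12 low range arrays 22257 to 51195, with no overlap, and Sftpc was the brightest of all probe sets on each high range array. Its mean was 85167 ± 8825 on high range arrays and 34068 ± 7713 on low range arrays (SD, n = 12 each).

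This split was larger for Sftpc than for any other tested probe set. Between the high and low range groups, with fed 0 h left out, Sftpc differed by 1.42 on the log2 scale, a ratio of 2.67. The 20 brightest probe sets outside the members were all higher in the high range groups, by 0.14 to 0.97 with a median of 0.41, which follows in part from how the ranges were set. The median over all tested probe sets was -0.02. Sftpb, which is also bright, differed by 0.32, Dlk1 by 0.25, Sftpd by 0.14, Slc34a2 by 0.07 and Fabp5 by -0.20.

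**Figure D2:**
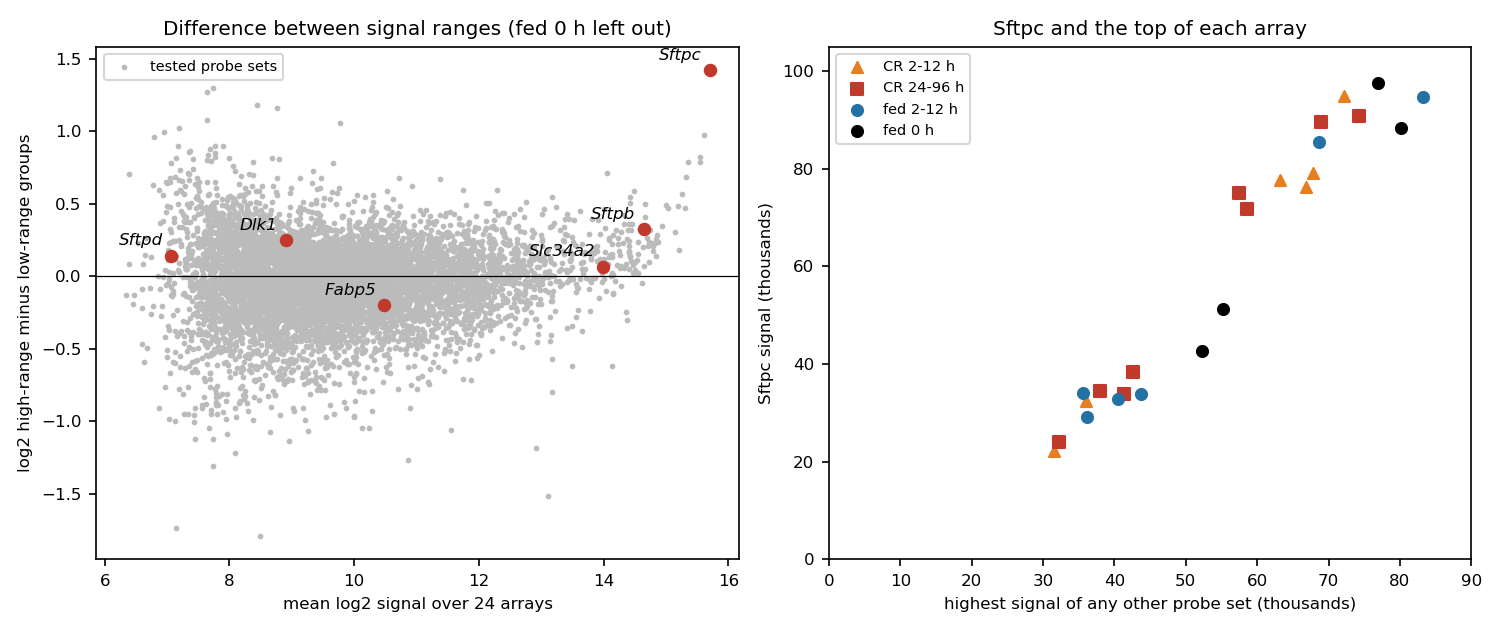
Left: log2 difference between the high and low range groups (fed 0 h left out) against the mean log2 signal over 24 arrays, with every tested probe set in grey and the members in red. Right: scaled linear Sftpc signal against the highest signal of any probe set outside the members, for each array. Sftpc has the largest difference of all tested probe sets, and on the right its 12 high range arrays lie above its 12 low range arrays.

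Sftpc differed among the 11 groups in limma's F test (adjusted p = 0.000606), as did Slc34a2 (adjusted p = 0.0364), so 2 of 5 members passed where 9.26% of all tested probe sets did. Among the late CR times, only Sftpc of the members differed in its change from fed 0 h (adjusted p = 0.0240 by limma's F test, which 0.578% of probe sets passed). At 72 and 96 h together its level was 0.395 times that at 24 and 48 h (95% interval 0.326 to 0.480; adjusted p = 8.03e-06; 8.45% of probe sets called). That comparison sets low range arrays against high range arrays. The 4 fed times also differed for Sftpc alone among the members (adjusted p = 0.0175; 1.25% of probe sets passed), again with both ranges in the comparison.

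Averaged over CR 24 to 96 h, the Sftpc signal was 57261 ± 27365 (SD, n = 8), against 69960 ± 27148 on fed 0 h arrays (SD, n = 4), and the arrays overlapped. The log2 difference was -0.36, a ratio of 0.777 with an interval of 0.591 to 1.02 (adjusted p = 0.181). The geometric mean was 51189 at CR 24 to 96 h, 92921 in fed 0 h number 1 and 46683 in number 2. Against number 1 alone Sftpc was called lower, where 23.8% of probe sets were. Against number 2 alone it was not called. Within the high range, CR 24 and 48 h stood at 0.876 times fed 0 h number 1 (interval 0.691 to 1.11; adjusted p = 0.367). Within the low range, CR 72 and 96 h fell to 0.689 times fed 0 h number 2 (interval 0.544 to 0.874; adjusted p = 0.0412). The tops of these arrays were not equal. The highest signal outside the members was 52254 and 55232 on fed 0 h number 2, and 32222 to 42629 on CR 72 and 96 h. The part of this gap in the Sftpc ratio was not tested. Without array 2a of fed 0 h, whose signal of 42569 was the lowest of the 4, the pooled difference passed the test at -0.57 (adjusted p = 0.0204). With the signal range as a block in the fit, the pooled difference stayed at -0.36 and passed (adjusted p = 0.0203). Only fed 0 h held both ranges, so the block took up the gap between its numbers alone. It cannot separate range from time in the CR groups.

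The fed 0 h numbers were themselves apart. Sftpc stood at 93038 ± 6590 in number 1 and 46882 ± 6099 in number 2 (SD, n = 2 each), a ratio of 1.99 (adjusted p = 0.000393). Fabp5 had 2567 ± 40.9 in number 1 and 1317 ± 271 in number 2, a ratio of 1.97 (adjusted p = 0.00269). Sftpb went the other way, with 16030.3 ± 5189 in number 1 and 24103 ± 2868 in number 2, a ratio of 0.650 (adjusted p = 0.0229). Thus 3 of 5 members differed between the numbers, where 39.9% of all tested probe sets did. For Slc34a2 the ratio was 0.913 (interval 0.727 to 1.15; adjusted p = 0.536), and for Dlk1 it was 0.876 (interval 0.607 to 1.26; adjusted p = 0.584). Each late result of the tested members below is therefore also given against each number.

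Slc34a2 encodes the sodium-dependent phosphate transporter NaPi-IIb, which takes up the phosphate left from surfactant lipid. Its signal on CR arrays was 18365 and 18185.5 at 2 h, 15239.8 and 15290.3 at 4 h, and 19139 and 18461 at 12 h. It was 16389 and 15262 at CR 24 h, 20174 and 18075 at 48 h, 16869 and 19997 at 72 h, and 17659.7 and 21175 at 96 h. On fed arrays it was 10471, 11983, 10416 and 14459 at 0 h, 18525 and 15750.4 at 2 h, 15439 and 15757 at 4 h, and 19609.5 and 15644 at 12 h. All 20 other arrays, CR and fed, lay above all 4 fed 0 h arrays. Among the tested probe sets, 20 of 7440 (0.269%) separated in this way upward.

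At CR 24 to 96 h Slc34a2 averaged 18200.1 ± 2069 (SD, n = 8), against 11832 ± 1896 at fed 0 h (SD, n = 4). It rose 1.54-fold (95% interval 1.32 to 1.81; adjusted p = 0.000922 by limma). The rise was 1.62-fold against fed 0 h number 1 (adjusted p = 0.000130) and 1.47-fold against number 2 (adjusted p = 0.00766). Within the high range it was 1.55-fold (adjusted p = 0.000813), and within the low range 1.54-fold (adjusted p = 0.00514). By time, the ratio to fed 0 h was 1.35 at 24 h (adjusted p = 0.123), 1.63 at 48 h (0.0122), 1.57 at 72 h (0.0178) and 1.65 at 96 h (0.00718). The share of all tested probe sets called at these times was 2.82%, 5.44%, 5.82% and 6.49%. These times share the fed 0 h arrays. With arrays a and b averaged and times treated as replicates, the call was lost (adjusted p = 0.0846). In whole lung RNA, more type II cells and more RNA per cell cannot be told apart, here or in the results that follow.

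The same gene was also higher in fed lungs of other hours. At fed 2, 4 and 12 h Slc34a2 averaged 16788 ± 1803 (SD, n = 6), and it rose 1.43-fold over fed 0 h (interval 1.21 to 1.68; adjusted p = 0.0238), the only call among 5 members where 1.85% of probe sets were called. That call was lost without any 1 of 6 arrays (fed 0 h 1a or 1b, fed 2 h 1a, fed 4 h 1a or 1b, fed 12 h 1a), at adjusted p of 0.0534 to 0.0786. CR 24 to 96 h stood at 1.08 times the mean of fed 2, 4 and 12 h, with an interval of 0.943 to 1.24 (adjusted p = 0.525). The 2 comparisons with fed 0 h share its 4 arrays.

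Markers of other cell types moved in the same late comparison. Of all tested probe sets, 9.85% were called higher there and 8.24% lower. Against number 1 these shares were 25.7% and 23.8%, and against number 2 they were 4.81% and 2.94%. They stand beside the late marker counts that follow. All 6 heart muscle markers were above the array median on all 24 arrays, and their summed signal was 11587 to 23613 on CR 24 to 96 h arrays, 15716 to 20624 on CR 2 to 12 h arrays, 14314 to 19749 on fed 2 to 12 h arrays and 23836 to 30394 on fed 0 h arrays. This sum was highest on the 4 fed 0 h arrays, but its genes did not move together. In the late mean Myl7 fell to 0.420 times (adjusted p = 7.36e-06), Myl4 to 0.498 times (2.48e-05) and Actc1 to 0.741 times (0.0307), while Myh6 stood at 1.82 times (0.0812), Tnnt2 at 0.938 times and Nppa at 0.940 times. Against number 1, 1 of the 6 rose and 2 fell, and against number 2, 0 rose and 3 fell.

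Of 3 B cell markers, 2 fell late, Cd79b to 0.381 times (adjusted p = 0.00672) and Ms4a1 to 0.401 times (0.00757), with Cd79a at 0.636 times (0.0952). Their sum was 1595 to 2843 at CR 24 to 96 h, 1818 to 7709 at CR 2 to 12 h, 4201 to 6379 at fed 2 to 12 h and 1817 to 8758 at fed 0 h, so the late CR arrays overlapped those of fed 0 h but not those of the other fed hours. All 3 B cell markers fell against number 1 (median log2 difference -2.21), while 0 rose and 0 fell against number 2 (median -0.42). These 3 were also higher in number 1 than in number 2 (median 1.79), where 39.9% of probe sets differed in either direction. The sum of the 3 ciliated cell markers was 11145 to 21033 at CR 24 to 96 h, 14461 to 28065 at CR 2 to 12 h, 17004 to 32893 at fed 2 to 12 h and 24030 to 34246 at fed 0 h, and only the late CR arrays lay wholly below fed 0 h. Of these 3, Tuba1a, a tubulin gene not restricted to ciliated cells, fell to 0.505 times late (adjusted p = 0.00184). Foxj1, the factor that defines ciliated cells, stood at 1.23 times (0.246), and Tekt1 was below the median on all 24 arrays. Of the 2 ciliated markers measured, 1 rose and 1 fell against number 1, and 0 rose and 1 fell against number 2.

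The 3 fat cell markers summed to 1481 to 2233 at CR 24 to 96 h, 1773 to 2795 at CR 2 to 12 h, 2184 to 3206 at fed 2 to 12 h and 2321 to 4390 at fed 0 h, again with only the late CR arrays wholly below fed 0 h. Adipoq, the adiponectin gene, fell to 0.532 times (adjusted p = 0.00866). Of the 3 fat cell markers, 2 fell against number 1 and 0 against number 2. Among the 6 endothelial markers Tie1 rose 1.76-fold (0.00669), Tek rose 1.42-fold (0.0363) and Emcn fell to 0.704 times (0.0109), and of 4 fibroblast markers Col3a1 fell to 0.525 times (2.21e-06). Against number 1, 4 of the 6 endothelial markers rose and 1 fell, and against number 2, 0 rose and 1 fell. Of the 4 fibroblast markers, 2 rose and 1 fell against number 1, and 0 rose and 2 fell against number 2. Limma called 0 of the 6 type I, 4 club, 5 macrophage and 2 red cell markers measured in the late mean, with 1 macrophage marker at an unadjusted p under 0.05. The part of these other cell types in the members' late results was not tested.

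The 3′ to 5′ ratio of the control probe sets differed between the groups too. For Gapdh it was 1.95 to 2.15 at CR 48 h, 1.76 to 2.02 at fed 0 h and 1.01 to 1.66 on the other 18 arrays. For actin it was 2.69 to 3.81 at CR 48 h, 1.87 to 2.31 at fed 0 h and 1.24 to 2.77 on the other 18 arrays. The part of RNA quality in the members' results was not tested.

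Sftpb encodes surfactant protein B, which is needed for lamellar bodies and for the surface film. Its signal on CR arrays was 30849 and 31584 at 2 h, 24452 and 22534 at 4 h, and 35635 and 31579 at 12 h. It was 20970.4 and 27168 at CR 24 h, 33353 and 31492 at 48 h, 25086 and 28623 at 72 h, and 24456 and 31580.2 at 96 h. On fed arrays it was 12361, 19699, 22074.5 and 26131 at 0 h, 21304 and 18901 at 2 h, 20669 and 26725.5 at 4 h, and 37426 and 25975 at 12 h. Array 1a of fed 0 h was the lowest of all 24, and the late CR arrays overlapped those of fed 0 h.

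Sftpb averaged 27841 ± 4226 at CR 24 to 96 h (SD, n = 8), against 20067 ± 5783 at fed 0 h (SD, n = 4), and it rose 1.42-fold (interval 1.12 to 1.80; adjusted p = 0.0370). Against number 1 the rise was 1.77-fold (adjusted p = 0.000395), while against number 2 the ratio was 1.15 with an interval of 0.903 to 1.46 (adjusted p = 0.521). It rose 1.78-fold within the high range (adjusted p = 0.000885). Within the low range the ratio was 1.14 (interval 0.875 to 1.48; adjusted p = 0.567). The pooled call was lost without any 1 of 7 arrays (CR 24 h 1b, both of 48 h, 72 h 1b, 96 h 1b, and fed 0 h 1a or 1b), at adjusted p of 0.0518 to 0.195. Without fed 0 h 1a the log2 difference was 0.29, against 0.51 with all arrays. No single late time passed for Sftpb, with the lowest adjusted p, 0.0647, at 48 h.

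Sftpd encodes surfactant protein D. Its signal lay between 67.8 on a fed 12 h array and 232.04 on a fed 2 h array, below the array median on all 24 arrays and at the floor on 1 array. It averaged 147 ± 30.8 at CR 24 to 96 h (SD, n = 8) and 161 ± 59.7 at fed 0 h (SD, n = 4). The groups overlapped, and without the filter the late log2 difference was -0.07 (adjusted p = 0.974). A probe set this dim says little about the level of the RNA in the lung.

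Fabp5 encodes the epidermal fatty acid binding protein, a cytosolic carrier of fatty acids. Its signal on CR arrays was 1842 and 2348 at 2 h, 1119.9 and 1510.5 at 4 h, and 978 and 1022 at 12 h. It was 1223 and 741 at CR 24 h, 942 and 1022 at 48 h, 916 and 1242 at 72 h, and 1391 and 1555 at 96 h. On fed arrays it was 2596, 2538, 1509 and 1126 at 0 h, 1739 and 1794 at 2 h, 1935 and 1751 at 4 h, and 1392 and 2090.2 at 12 h. The 8 arrays of CR 12 to 72 h were all below every fed array except array 2b of fed 0 h, which fell among them.

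Fabp5 averaged 1129 ± 271 at CR 24 to 96 h (SD, n = 8), against 1942 ± 739 at fed 0 h (SD, n = 4), and fell to 0.601 times the fed 0 h level (interval 0.446 to 0.811; adjusted p = 0.0203). Against number 1 it fell to 0.429 times (adjusted p = 2.31e-05). Against number 2 the ratio was 0.844, with an interval of 0.645 to 1.11 (adjusted p = 0.473). The ratio was 0.376 within the high range (adjusted p = 1.70e-05), and within the low range it was 0.961 (interval 0.715 to 1.29; adjusted p = 0.890). The pooled call was lost without array 1a or 1b of fed 0 h, at adjusted p of 0.103 to 0.105.

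Macrophage markers split by signal range as well. Within the high range, 4 of the 5 measured fell, Chil3 to 0.176 times (adjusted p = 1.66e-06), Mrc1 to 0.430 times (0.000397), Cd68 to 0.530 times (9.35e-05) and Lyz2 to 0.655 times (0.000635), and Csf1r rose 1.87-fold (0.000308), where 23.3% of probe sets were called lower and 22.7% higher. Within the low range 3 of the 5 rose, Chil3 10.4-fold (1.57e-07), Cd68 2.62-fold (5.86e-06) and Mrc1 2.15-fold (0.00487), where 10.7% of probe sets were called in either direction. Of the 6 macrophage markers on the array, 4 were above the median on all 24 arrays and Marco was below it on all 24, and the sum was 21094 to 44590 at CR 24 to 96 h and 17562 to 46560 at fed 0 h, with overlap. The part of macrophage RNA in the Fabp5 values was not tested.

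Fabp5 was also lower than in fed lungs of the other hours, a comparison that uses no fed 0 h array. With 1783 ± 234 at fed 2, 4 and 12 h (SD, n = 6), the CR 24 to 96 h level was 0.622 times as high (interval 0.478 to 0.809; adjusted p = 0.0285). It was the only call among 5 members, where 6.34% of probe sets were called. Within the high range it fell to 0.567 times (adjusted p = 0.0210; 5.54% of probe sets called), and within the low range to 0.695 times (adjusted p = 0.0427; 12.7% called). It was lost without any 1 of 9 arrays (CR 24 h 1b, and array 1a of 48, 72 and 96 h, both of fed 2 h, both of fed 4 h, and fed 12 h 1b), at adjusted p of 0.0514 to 0.107. Against the same fed hours, 1 of 5 macrophage markers fell (Cd68 to 0.603 times, adjusted p = 0.0108), as did 3 of 3 B cell markers (Cd79b to 0.353, Cd79a to 0.417 and Ms4a1 to 0.435 times), where 2.73% of probe sets were called lower. By the labelled hours, this comparison sets lungs of different clock times against each other.

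Dlk1 was the dimmest tested member. Its signal on CR arrays was 555 and 502 at 2 h, 328 and 410.2 at 4 h, and 607 and 347 at 12 h. It was 336 and 487 at CR 24 h, 569 and 503 at 48 h, 424 and 437 at 72 h, and 409.5 and 442 at 96 h. On fed arrays it was 670.1, 517, 733 and 615 at 0 h, 424 and 519 at 2 h, 372 and 417 at 4 h, and 537 and 572 at 12 h. Only array 1b of fed 0 h overlapped the late CR arrays.

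At CR 24 to 96 h Dlk1 averaged 451 ± 69.5 (SD, n = 8), against 634 ± 91.7 at fed 0 h (SD, n = 4), and it fell to 0.710 times the fed 0 h level (interval 0.563 to 0.895; adjusted p = 0.0381). The ratio was 0.759 against number 1 (adjusted p = 0.107) and 0.665 against number 2 (adjusted p = 0.0806). It was 0.791 within the high range (adjusted p = 0.221) and 0.638 within the low range (adjusted p = 0.0649). The pooled call was lost without any 1 of 8 arrays (CR 24 h 1a, 48 h 1b, both of 72 h, both of 96 h, and fed 0 h 1a or 2a), at adjusted p of 0.0538 to 0.117. Against fed 2, 4 and 12 h the ratio was 0.954 (interval 0.778 to 1.17; adjusted p = 0.828).

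Over the late mean, 4 of 5 tested members were thus called, Sftpb and Slc34a2 upward and Fabp5 and Dlk1 downward, where 18.1% of all 7440 tested probe sets were called (9.85% higher and 8.24% lower). Against number 1 alone, 4 members (Sftpb, Sftpc, Slc34a2 and Fabp5) were called, where 49.4% of probe sets were. Against number 2 alone, only Slc34a2 was called of the members, where 7.76% of probe sets were. Within the high range 3 were called (Sftpb, Slc34a2 and Fabp5; 46.0% of probe sets), and within the low range 2 (Slc34a2 and Sftpc; 10.7% of probe sets).

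**Figure D3:**
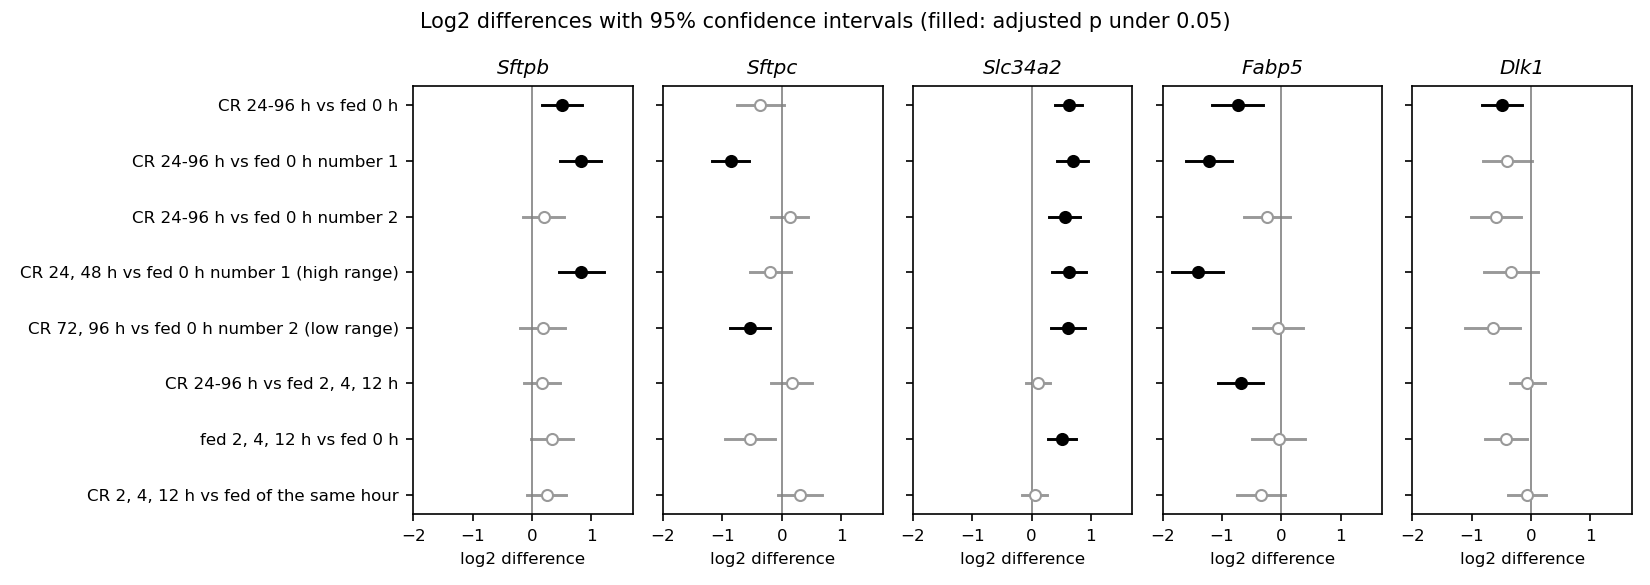
Log2 differences (horizontal axis) of the 5 tested members in 8 comparisons, with 95% intervals; filled points have an adjusted p under 0.05 by limma. Slc34a2 is above 0 in all 5 comparisons of late CR with fed 0 h arrays, while Sftpb and Fabp5 move toward 0 against fed 0 h number 2.

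In the first 12 h no member passed. CR 2, 4 and 12 h were set against the fed group of the same hour. In the mean of these times limma called 0 of 5 members, with 0 at an unadjusted p under 0.05, where 0.0269% of all probe sets were called. At the single times it also called 0, with 2 members at an unadjusted p under 0.05 at 2 h, 0 at 4 h and 1 at 12 h. The shares of all probe sets called at these times were 0.00%, 0.00% and 0.148%. The mean ratio was 1.19 for Sftpb (interval 0.949 to 1.48), 1.24 for Sftpc (0.956 to 1.60) and 1.04 for Slc34a2 (0.897 to 1.20). It was 0.787 for Fabp5 (0.594 to 1.04) and 0.954 for Dlk1 (0.767 to 1.19). For Sftpc the 2 h comparison set high range arrays against low range arrays, with a ratio of 2.31 (adjusted p = 0.521), while the ratios at 4 and 12 h, each within a range, were 0.852 and 0.963. With the signal range as a block, Fabp5 passed at a log2 difference of -0.67 (adjusted p = 0.0211). Only fed 0 h held both ranges, so this block rests on the gap between the fed 0 h numbers alone. Between the ranges of the other groups Fabp5 differed by -0.20, the opposite direction to that gap. The pass is therefore no early difference freed of the signal range.

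Ordered by group mean, most neighbouring groups overlapped. Of the 10 neighbouring pairs of groups, the arrays did not overlap in 2 for Sftpc, 2 for Slc34a2, 2 for Sftpd, 1 for Sftpb and none for Fabp5 or Dlk1. Of all tested probe sets, 60.0% had at least 1 such pair and 24.3% at least 2, with a median of 1, so these counts do not set the members apart. Sftpc was highest at fed 12 h and lowest at CR 4 h. Slc34a2 was highest at CR 96 h and lowest at fed 0 h, where the gap to CR 4 h, its neighbour, held no array. Sftpb was highest at CR 12 h and lowest at fed 0 h, Fabp5 highest at CR 2 h and lowest at CR 24 h, and Dlk1 highest at fed 0 h and lowest at CR 4 h.

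Over the 11 group means, the gene most like Sftpc of 5701 was Scgb1a1 (r = 0.986), the club cell secretory protein gene, followed by Ly6e (0.974), a membrane protein gene, and Hba-a1 (0.965), a hemoglobin gene. These 3 genes were among the 20 brightest probe sets and share the signal range with Sftpc. Sftpb was most like Rbpms (0.926), Gpx3 (0.918) and Rbm42 (0.904), and Slc34a2 was most like Jup (0.890), Scarb1 (0.874) and Pfkl (0.873). Fabp5 was most like Dtd1 (0.920), Sdhd (0.919), a succinate dehydrogenase subunit gene, and Psmd14 (0.916), a proteasome gene. Dlk1 was most like Eif1b (0.907), Bcl2l11 (0.881) and Scgb1b2 (0.874), and the dim Sftpd most like Gstm3 (0.907), Etf1 (0.897) and Cox18 (0.880). These values describe 11 means of the same arrays.

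Among transcription factors and signals known to act on surfactant genes, 12 of 18 listed were measured, and 4 rose and none fell in the late mean, where 9.85% of all tested probe sets were called higher and 8.24% lower (median log2 difference 0.42, against -0.0049 over all tested probe sets). These shares also stand beside the late counts of the lists that follow. Cebpd and Cebpb, genes of C/EBP transcription factors, rose 2.22-fold (adjusted p = 1.79e-06) and 2.00-fold (9.45e-05). Stat3, a factor downstream of cytokine receptors, rose 1.28-fold (0.0434), and Klf5, a zinc finger factor of epithelia, rose 1.52-fold (0.0470). Against number 1, 11 of 12 rose, where 25.7% of probe sets were called higher. Against number 2, 2 rose, where 4.81% were called higher, and the median was -0.07: Cebpd at 2.56-fold (1.13e-07) and Cebpb at 1.68-fold (0.00192). Between the fed 0 h numbers, 1 of these 12 genes was higher in number 1 and 9 were lower, where 39.9% of probe sets differed in either direction.

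Of 20 further type II cell genes, 11 were measured, and 1 rose and none fell late (median 0.14), a share of rises near that of all probe sets (9.85%). Erbb3, a receptor of neuregulins, rose 1.68-fold (adjusted p = 0.0145) in the late mean. Its ratio was 1.16 against number 2 (adjusted p = 0.425). Slc39a8, a metal transporter gene, stood at 1.15 times (0.309), Lpcat1, whose enzyme remodels surfactant phosphatidylcholine, at 1.13 times (0.320), and Fgfr2, a growth factor receptor gene, at 1.17 times (0.334). Napsa, whose protease processes surfactant protein B, stood at 0.878 times (0.352). Against number 1, 6 of these 11 genes rose and 2 fell, where 25.7% of probe sets were called higher and 23.8% lower. Against number 2, 1 rose and 0 fell (4.81% and 2.94%). Within the high range 3 rose and 2 fell (22.7% and 23.3%). The 2 that fell there were Ctsh, to 0.706 times (adjusted p = 0.00123), and Napsa, to 0.712 times (0.0103). Within the low range only Ctsh was called, at 1.97-fold (8.48e-06), where 10.7% were called.

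Of 21 genes for surfactant phospholipid and fatty acid synthesis, 14 were measured, and 1 rose and 1 fell late (median 0.11), close to the shares over all probe sets (9.85% and 8.24%). Scd2 and Scd1, both genes of stearoyl-CoA desaturases, were called in opposite directions: Scd2 rose 1.56-fold (adjusted p = 0.0265) and Scd1 fell to 0.706 times (0.00369). Scd1 fell against each number, to 0.728 times against number 1 (0.00365) and 0.683 times against number 2 (0.00666), and Scd2 stood at 1.17 times against number 2 (0.498). Elovl1, a fatty acid elongase gene, stood at 0.682 times (0.0566) and Plin2, a lipid droplet protein gene, at 1.46 times (0.0755) in the late mean.

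Of 15 genes for surfactant processing, lamellar bodies and clearance, 8 were measured, and limma called 0, with 2 at an unadjusted p under 0.05 (median 0.27). Those with the smallest p were Pltp, a phospholipid transfer protein gene, at 1.23 times (adjusted p = 0.0724), and Csf2ra, a GM-CSF receptor gene, at 1.32 times (0.118). Hps1 stood at 0.857 times (0.168) and Ap3b1, an adaptor gene for organelles of the lysosome family, at 1.24 times (0.180). Of the 8 genes, 2 rose and 2 fell against number 1, where 25.7% of probe sets were called higher and 23.8% lower. Against number 2, 1 rose and 0 fell (4.81% and 2.94%).

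**Figure D4:**
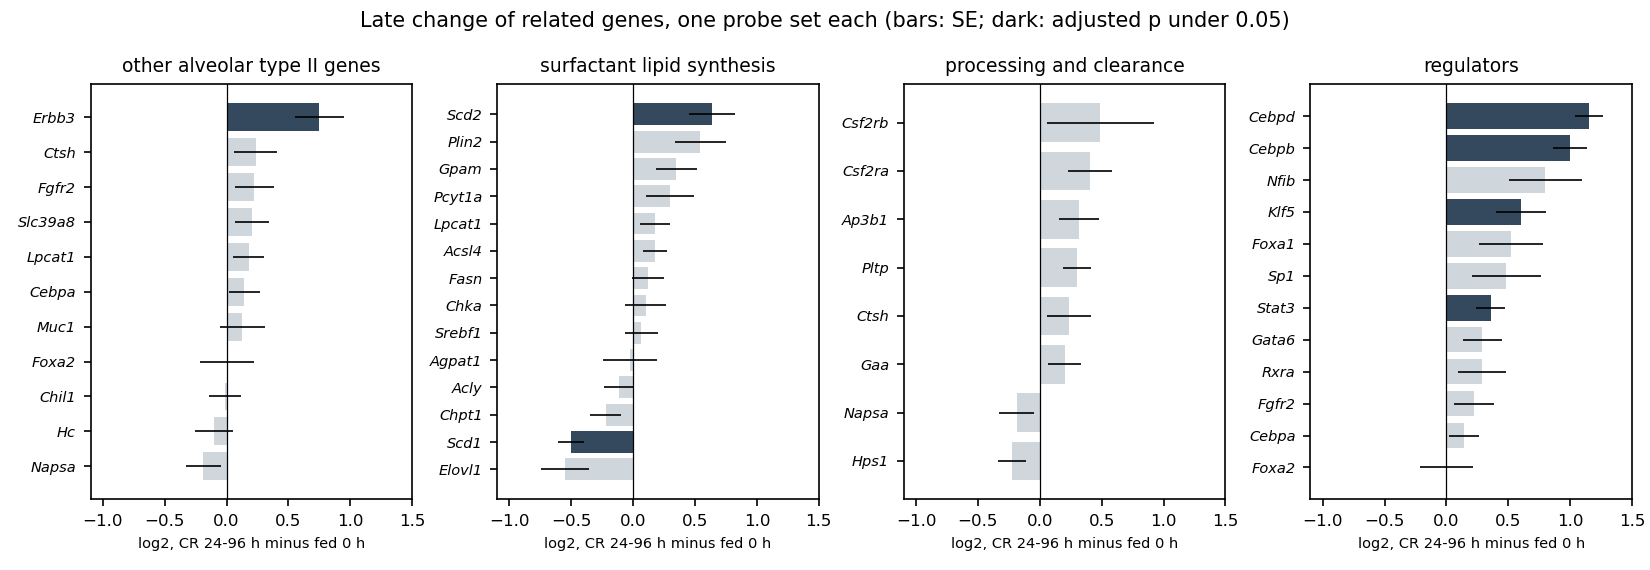
Log2 difference (horizontal axis) between CR 24 to 96 h and fed 0 h for the measured genes of 4 lists, with SE bars; dark bars have an adjusted p under 0.05 by limma. Cebpd and Cebpb among the regulators have the largest rises, and Scd2 and Scd1 lie on opposite sides of 0.

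Among the relatives of Fabp5, 3 of 9 listed lipid binding protein genes were measured (Fabp1, Fabp3 and Fabp4). Limma called 0 of them late, with 0 at an unadjusted p under 0.05 (median -0.34). The ratios were 0.620 for Fabp1 (adjusted p = 0.279), 0.787 for Fabp3 (0.171) and 0.844 for Fabp4 (0.515). All 3 fell against number 1, where 23.8% of probe sets were called lower, and 0 were called against number 2, where the median was 0.23.

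Dlk1 is an imprinted gene, and 5 of 12 listed imprinted genes were measured, with 1 called upward and 1 downward (median 0.05). Peg3, a zinc finger protein gene, rose 1.99-fold (adjusted p = 0.0240) and Ndn, the necdin gene, fell to 0.575 times (0.00425). Against number 2 neither passed, with Peg3 at 1.66 times (0.233) and Ndn at 0.646 times (0.0658). In the late mean Sgce stood at 0.970 times (0.818), and Cdkn1c at 1.03 times with an interval of 0.844 to 1.27.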

How the data were processed

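Lung RNA was measured on 24 MG-U74Av2 arrays. The deposited values were linear intensities of 12488 probe sets, already scaled by the authors to a shared trimmed mean. The sources used here do not name their software. Another array, of a different platform and processed with MAS5 according to the submitters' notes, was left out because its labels disagree on the treatment.

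After 66 control probe sets were left out, arrays were brought to a common median (factors 0.920 to 1.05), signals under the 25th percentile (80.4) were raised to it, and log2 was taken. The 7440 probe sets at or above their array's median on at least 2 arrays were tested with limma 3.58.1 in R 4.3.3 (group means of 11 groups, eBayes, trend = TRUE, 13 residual df), two-sided, with Benjamini-Hochberg adjustment over all 7440 and a threshold of 0.05. Folds are ratios of geometric means, and levels are arithmetic means. CR 24 to 96 h was set against fed 0 h and against fed 2, 4 and 12 h, and CR 2 to 12 h against the fed arrays of its own hour. The signal range of an array was set from its highest signal outside the members. The number of arrays limits the precision.

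Gene symbols come from the platform annotation, updated through Entrez identifiers for 10817 of 10833 probe sets with 1 symbol; 396 had several and 1193 none. Promoters come from RefSeq (GRCm38.p6) and were found for 3 of the members. The members, the lists and the naming rule were chosen with earlier results of these data known. The rule names every member, the 3 genes with the highest Pearson r to each member over the group means, and up to 4 genes per list with the smallest adjusted p; genes beyond 4 were named after their values were seen. The fit was tested on simulated data. Alternatives covered scaling, floor, filter, variance model, array weights, letter blocks, averaged letters, signal range, each fed 0 h number and each array left out.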

Additional observations from a re-analysis of the deposited data

Results flagged for a closer look

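The change of Sftpc from fed 0 h differed between the late CR times (adjusted p = 0.0240 by limma's F test over 24, 48, 72 and 96 h). Its ratio to fed 0 h was 1.25 (24 h) and 1.22 (48 h), but 0.437 (72 h) and 0.547 (96 h). The arrays of 24 and 48 h were of the high signal range and those of 72 and 96 h of the low one, so time and range cannot be told apart. No member had an array of fed 0 h far from the other 3 by Dixon's test, and fed 0 h was the only group with enough arrays for it.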

How the results depend on the processing

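In the late mean 4 of 5 tested members were called. This count was 1 without the filter on low signals, 1 with array weights and 0 with arrays a and b averaged and times as replicates. It was 1 against fed 0 h number 2, 2 within the low range and 1 to 4 with each array left out. The 2 within the low range were Slc34a2 and Sftpc, and Sftpc was not called in the late mean. For fed 2, 4 and 12 h against fed 0 h (1 called) the counts were 0 with array weights, 0 with averaged letters, 4 against number 1, 2 within the high range and 0 to 2 with each array left out. For late CR against fed 2, 4 and 12 h (1 called) they were 0 without the filter, 0 with averaged letters and 0 to 1 with each array left out. The early count of 0 became 1 with the signal range as a block, which rests on the fed 0 h numbers alone. Over the 11 groups (2 called) the count was 1 without the intensity trend, 1 with the letter as a replicate block, and 1 to 3 with each array left out. With that replicate block the late count stayed at 4, and same-lettered arrays did not deviate together (median r 0.0057 over 45 pairs of groups), so letters were not used as pairs. Directions turned in values that did not pass the test. For Fabp5 at fed 2, 4 and 12 h against fed 0 h (-0.05) the log2 difference was 0.037 with array weights, 0.12 with the range block, 0.44 against number 2, 0.47 within the low range and -0.28 to 0.12 with each array left out. For early Sftpc (0.31) it was -0.023 with the range block, -0.055 within the high and -0.23 within the low range. Late Sftpc (-0.36) was 0.13 against number 2. Early Sftpb was -0.0018 and early Slc34a2 -0.031 within the low range, and early Dlk1 ranged over -0.20 to 0.067 with each array left out. Within the high range, late CR against fed 2, 4 and 12 h gave -0.16 for Sftpb, -0.15 for Sftpc and -0.011 for Slc34a2, and within the low range -0.0091 for Sftpc. Sftpb at fed hours against fed 0 h was -0.15 within the low range. The cause of these changes was not tested. In all, 654 of the recomputed values kept their direction and side of the threshold, or their count, 11 newly passed, 56 no longer passed and 19 turned.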
